A study of Homo sapiens with 12 samples.

Results

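The interaction of Wip1 depletion with ATM inhibition was measured in the human colorectal carcinoma line HCT116 as the departure of the combined state from the sum of both single changes. All 12 arrays of the series entered, and 11785 genes with a detected probe were tested. The arrays fell into 4 groups of 3. In Wip1SH+ATMi, cells with a short hairpin RNA against Wip1 received an ATM inhibitor at 10 µM for 3 days with daily renewal. In Wip1SH the hairpin cells had no inhibitor, in WT+ATMi the parental cells had the same inhibitor, and in WT the parental cells had neither. The series' design text calls the 3 arrays of a group biological replicates. No group carried a control hairpin and no vehicle is named, so Wip1 depletion includes any other difference between hairpin and parental cells, and ATM inhibition includes any effect of the solvent.

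Wip1, the product of PPM1D, is a PP2C-type phosphatase. Its gene is switched on by p53, and it dephosphorylates p53, ATM and further members of the pathway. ATM is the kinase that starts the DNA damage response at double-strand breaks, so Wip1 and ATM act on many of the same proteins in opposite directions. An interaction shows where losing both does something other than the sum of losing each.

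For each gene, the interaction was the inhibitor's change in hairpin cells (Wip1SH+ATMi minus Wip1SH) minus its change in parental cells (WT+ATMi minus WT), on normalized log2 intensity. A positive value means that Wip1SH+ATMi lay above the sum of both single changes, and is called higher here. A negative value means that it lay below, and is called lower. The test was limma's moderated test over all genes with Benjamini-Hochberg adjustment, called at an adjusted p of 0.05, and errors after ± are standard errors of the log2 difference unless SD is named. PPM1D itself was at 8.86, 8.83 and 8.69 in Wip1SH+ATMi, 8.74, 8.43 and 8.87 in Wip1SH, 10.62, 10.62 and 10.68 in WT+ATMi and 10.28, 10.43 and 10.31 in WT. All 6 hairpin arrays lay below all 6 parental arrays. The depletion came to -1.85 with the inhibitor and -1.66 without it, and the interaction of PPM1D was -0.18 ± 0.15 (adjusted p = 0.546). For ATM it was -0.49 ± 0.25 (adjusted p = 0.311). The RNA of the kinase does not report on its activity.

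The number of probes above background moved with the groups. Between 19505 and 20408 probes were detected in Wip1SH+ATMi, between 18568 and 18961 in Wip1SH, between 18723 and 19654 in WT+ATMi and between 17650 and 17929 in WT. With this number as a covariate 231 genes were called in place of 367, and 218 of them were shared. Of 11 markers of colon carcinoma epithelial cells, 8 were detected on every array, while LGALS4, VIL1 and CDX1 were detected on none. Of the markers of other cell types, COL1A1 of 8 fibroblast genes and CD68 of 6 leukocyte genes were detected on every array. None of 4 endothelial markers was detected on any array, and COL1A1 itself had an interaction of 0.64 (adjusted p = 0.0285). The part of these markers in the results was not tested.

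In most genes a departure of the combined state from the sum of both single changes was not detectable with 3 arrays a group. The interaction was called in 367 genes, which is 3.11% of those tested, with 224 higher (1.9%) and 143 lower (1.21%). At an unadjusted p under 0.05 there were 2194 (18.6%). By comparison, the inhibitor's own change was called in 2750 genes in hairpin cells (23.3%) and in 3002 in parental cells (25.5%). The median SE was 0.15 for the interaction against 0.11 for a difference of 2 groups, so interactions of a given size were harder to detect. The median called interaction had a size of 0.73, and 36 of the 367 reached 1. Leaving out WT+ATMi replicate 1 or 3 left 196 and 161 calls, leaving out Wip1SH replicate 1 or 3 left 185 and 221, leaving out Wip1SH+ATMi replicate 1, 2 or 3 left 239, 217 and 232, and leaving out WT replicate 3 left 232. Across all 11785 genes the inhibitor's log2 changes in hairpin and parental cells, which share no array, had a correlation of 0.54, with genes not being independent replicates.

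The balance of higher and lower calls depended on the scaling. Quantile normalization, as deposited, gave 61% of calls higher and equal array medians over the tested probes gave 68.7%. With equal array medians over all probes on the array, 11 genes were higher and 256 lower, so that 4.12% of 267 calls were higher. At most 20408 of the 47323 probes were detected on any array, so the median over all probes was that of a probe below background. Which scaling fits was not tested. The scaling over all probes moved the median interaction of all genes to -0.28, against -0.02 as deposited. None of the 367 called genes changed sign under either scaling. Interactions below are therefore relative to the bulk of the genes.

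The called genes were sorted by where the inhibitor's change passed the threshold. Of the 224 higher genes, 80 had inhibitor changes of opposite sign in hairpin and parental cells, both past the threshold. In 56 others the inhibitor's change passed the threshold in hairpin cells alone, in 80 in parental cells alone, and in 8 it had the same sign in both. Of the 143 lower genes, the counts were 14 for opposite signs, 39 for hairpin cells alone, 71 for parental cells alone and 19 for the same sign in both. In no called gene did the inhibitor's change miss the threshold in both. A change that missed the threshold in 1 cell state need not be absent there. PPID, counted under parental cells alone, had -0.51 in hairpin cells (limma, adjusted p = 0.0518) and 0.53 in parental cells (adjusted p = 0.0416). The share of all genes in each class was not counted. These counts describe genes chosen by the difference itself, since the same arrays enter the interaction and the single changes.

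**Figure D1:**
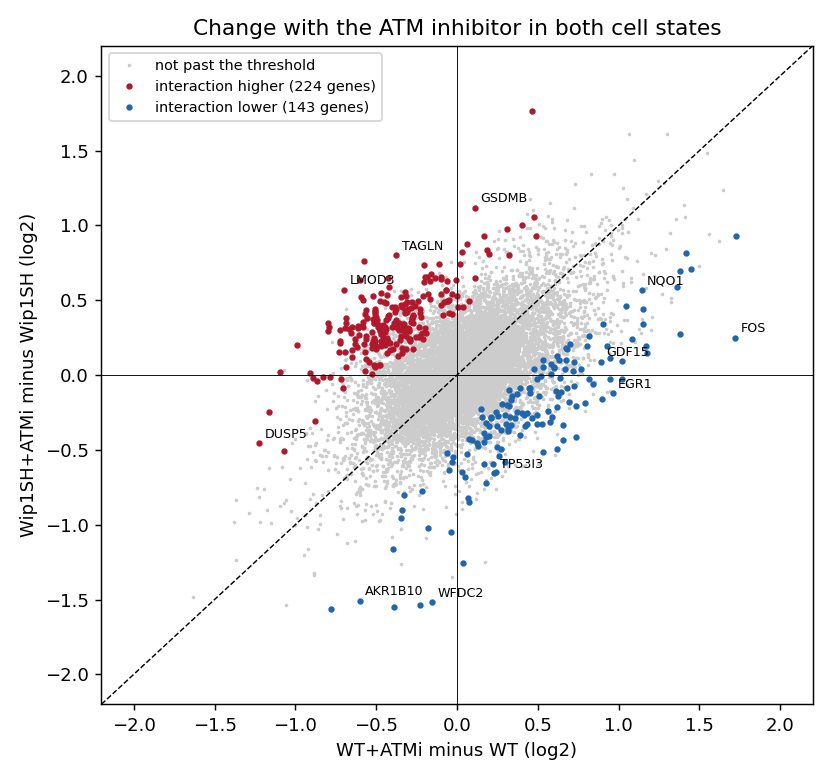
Log2 change with the ATM inhibitor in hairpin cells (Wip1SH+ATMi minus Wip1SH, vertical axis) against that in parental cells (WT+ATMi minus WT, horizontal axis) for 11785 genes. The dashed line marks equal changes, and the 224 genes called higher (red) lie above it, the 143 called lower (blue) below it. Many red points lie at the upper left, where the inhibitor went with higher values in hairpin and lower values in parental cells.

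Single changes were counted in the 224 higher genes, a set chosen by a contrast that holds both of them. Both single changes were called lower than WT in 139 of 224, that is, either the inhibitor alone or the hairpin alone went with less of the transcript. In 49 of these, adding the second change to either single state was called higher in turn. Taken singly, the inhibitor's change in parental cells was called lower in 163 of the 224 (72.8%, against 10% of all genes). The hairpin's change without inhibitor was called lower in 185 (82.6%, against 15.4% of all genes). The median over the 224 genes was -0.07 for Wip1SH+ATMi against WT, -0.43 for the hairpin without inhibitor and -0.42 for the inhibitor in parental cells. The first of these was called in 62 of the 224 genes (27.7%), against 40.7% of all genes tested. It was higher than WT in 21 (9.38%, against 23.5% of all genes) and lower in 41 (18.3%, against 17.1%). Both single changes are set against the same WT arrays, so their likeness is not independent evidence. Both also enter the interaction by which the genes were chosen, so low single states were favoured in advance. The share of all genes with both changes called, here or in the mirror image below, was not counted. The mirror image, with both single changes called higher than WT, held in 66 of the 143 lower genes and was complete in 4. The median over the 143 was 0.17 for Wip1SH+ATMi against WT, 0.38 for the hairpin alone and 0.45 for the inhibitor in parental cells.

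LMOD3, which encodes the actin-nucleating protein leiomodin 3 of muscle, had the smallest adjusted p of all genes. It was at 9.02, 8.85 and 8.87 in Wip1SH+ATMi, 8.24, 8.41 and 8.38 in Wip1SH, 8.24, 8.35 and 8.28 in WT+ATMi and 9.03, 8.93 and 8.998 in WT. Both single states lay below the combined and the WT arrays, which overlapped. The interaction was 1.27 ± 0.11 (adjusted p = 0.00115), made up of 0.57 for the inhibitor in hairpin cells and -0.70 in parental cells. ABRAXAS1, the scaffold of the BRCA1-A complex that binds ubiquitin at DNA breaks, followed the same course. Its values were 10.18, 10.12 and 10.24 in Wip1SH+ATMi, 9.77, 9.63 and 9.56 in Wip1SH, 9.72, 9.78 and 9.53 in WT+ATMi and 10.32, 10.29 and 10.21 in WT. Its interaction was 1.12 ± 0.12 (adjusted p = 0.00245). DMC1, a recombinase of meiosis, was at 10.76, 10.61 and 10.64 in Wip1SH+ATMi, 10.28, 10.26 and 10.24 in Wip1SH, 10.31, 10.16 and 10.27 in WT+ATMi and 10.80, 10.90 and 10.75 in WT. In all 3 genes, each of the 6 arrays with a single change lay below each of the 6 others, and the DMC1 interaction was 0.98 ± 0.11 (adjusted p = 0.00232). With equal array medians over all probes DMC1 lost its call.

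The same crossover, with all 4 differences called, was seen in SHROOM4, a cytoskeletal protein (1.06 ± 0.14), and in the zinc finger gene ZNF682 (1.05 ± 0.12). SLC4A11, a membrane transporter, had 0.94 ± 0.10 (adjusted p = 0.00232), and in WT+ATMi it lay only 0.21 below WT. SNRNP35, a protein of the minor spliceosome, was not detected on any Wip1SH array, so that its interaction has no exact size. It was at least 1.19-fold higher with the inhibitor in hairpin cells, and at least 2.63-fold lower with the hairpin alone, while its combined state stayed below both WT groups. MBD4, a DNA glycosylase that removes thymine from mismatches at methylated sites, had 0.86 ± 0.14 (adjusted p = 0.0107), with 0.37 for the inhibitor in hairpin cells and -0.50 in parental cells. MBTD1, a reader of methylated histone H4 in the TIP60 complex, and MINDY1, a deubiquitinase, had interactions of 1.15 ± 0.20 and 1.02 ± 0.15. For them the inhibitor's change passed the threshold in parental cells alone. TMEM106A (1.11 ± 0.19) and COA8, an assembly factor of cytochrome oxidase (0.88 ± 0.13), did the same. With equal array medians over all probes SHROOM4, ZNF682, SLC4A11, SNRNP35, MBD4, MBTD1, MINDY1, TMEM106A and COA8 lost their calls.

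Several higher genes had a second probe that did not move with the first. FKBP14, a chaperone of the endoplasmic reticulum, had 1.09 ± 0.16 by its brighter probe and -0.08 by the other. C2orf69 (0.66) and the noncoding PAXIP1-DT (0.71) had second probes at -0.46 and -0.43. For MINDY1 the dimmer probe, near background, gave 0.14. TAGLN, an actin-binding protein of smooth muscle, had 1.17 ± 0.19 by its brightest probe and 1.03 and 0.22 by the others. Of the 15 largest positive interactions, those of ACSF3 (1.34 ± 0.32), RNA18SN5 of the 18S ribosomal RNA (1.30 ± 0.26), TXNDC2, KRTAP3-1 (1.11 ± 0.23) and TCAF2 (1.08 ± 0.25) lost their call on leaving out any of 4 to 10 single arrays. TXNDC2 was not detected on any WT+ATMi array, at least 1.58-fold below WT.

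**Figure D2:**
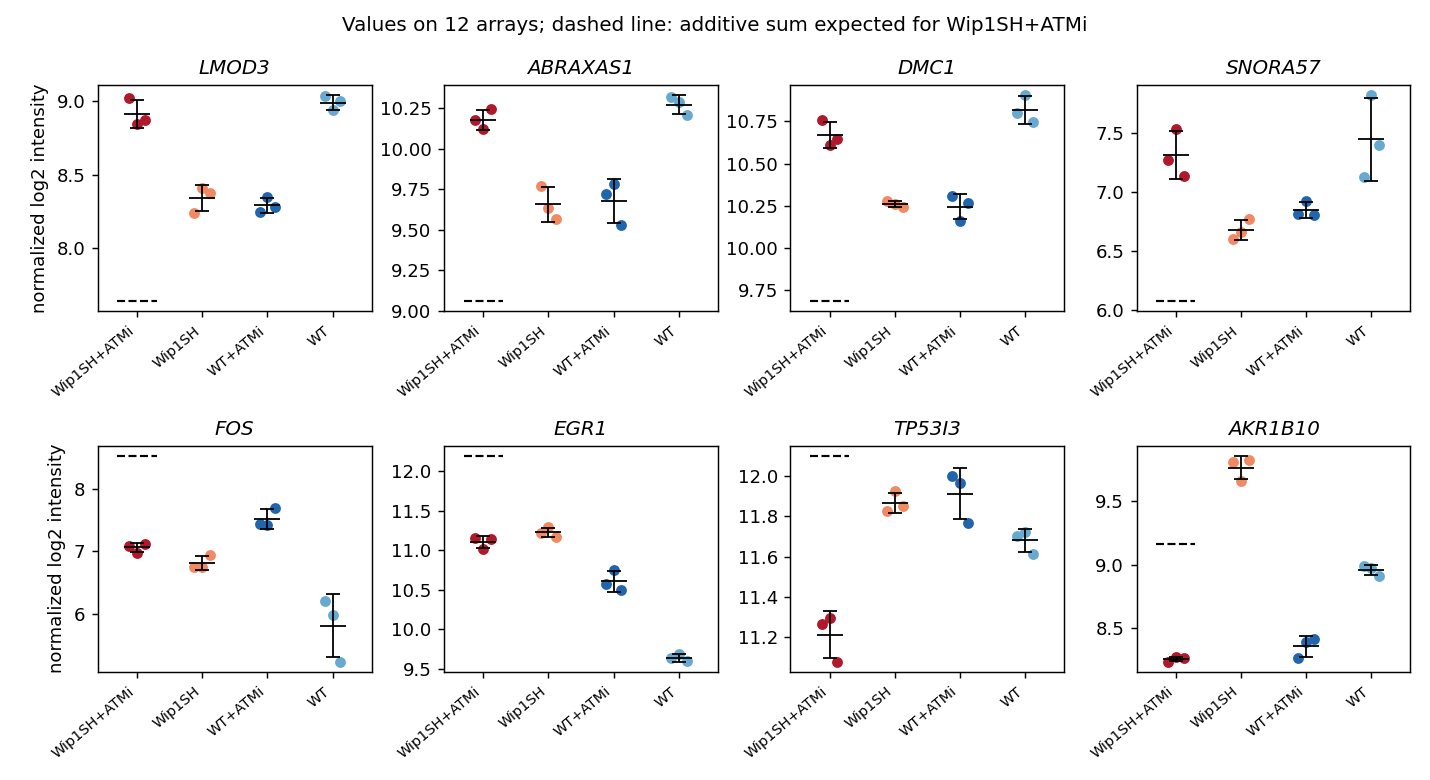
Normalized log2 intensity of 8 genes on the 12 arrays (points), with the group mean and SD (n = 3). The dashed line marks the value that the sum of both single changes gives for Wip1SH+ATMi; LMOD3 reached 8.91 against a sum of 7.65, and EGR1 11.10 against 12.19. The vertical axes differ between panels and do not start at 0.

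In another set of higher genes the inhibitor's change passed the threshold in hairpin cells alone. GSDMB, a member of the pore-forming gasdermin family, was at 8.90, 9.11 and 8.99 in Wip1SH+ATMi, 7.84, 7.98 and 7.82 in Wip1SH, 7.95, 8.04 and 8.09 in WT+ATMi and 7.95, 7.76 and 8.03 in WT. The 3 combined arrays stood above the other 9, which overlapped. Its interaction was 1.01 ± 0.13 (adjusted p = 0.00639), and the other 2 probes had 0.77 and 0.26. TAF1C, a subunit of the selectivity factor for RNA polymerase I, had 0.83 ± 0.11 (adjusted p = 0.0067). It was lower in Wip1SH by 0.84 and in Wip1SH+ATMi lay within 0.02 of WT+ATMi. Its second probe had 0.39, and it lost its call with the mean of its probes and with equal array medians over all probes.

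Small nucleolar RNAs, the gene list with the most members tested, also held the most calls. They guide the modification of ribosomal RNA, the C/D class methylation and the H/ACA class pseudouridylation, and small Cajal body RNAs do the same for spliceosomal RNA. Most human members are cut from introns of host genes, many of which encode ribosomal proteins or noncoding host transcripts. The array's labelling kit primes on poly(A), which these RNAs lack when mature, so the probes may report precursors or adenylated forms, and which of these was measured was not tested. Of 117 members tested, 23 were called higher (19.7%, against 1.9% of all genes) and 0 lower by limma, with 2 below 0 at an unadjusted p under 0.05. At the level of the list, 96 of 117 lay above 0, where 47.5% of all genes did, with a median interaction of 0.39 against -0.02 over all genes. By class, 12 of 61 C/D, 10 of 46 H/ACA and 1 of 10 Cajal body RNAs were called, with medians of 0.46, 0.33 and 0.21.

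The median level over the 117 RNAs was 6.85, 6.86 and 6.69 in Wip1SH+ATMi, 6.62, 6.63 and 6.64 in Wip1SH, 6.64, 6.68 and 6.66 in WT+ATMi and 6.97, 6.96 and 7.07 in WT. All 3 WT arrays were highest and the 6 arrays with a single change were lowest, with 1 combined array only just above them. The inhibitor in hairpin cells raised 25 of the 117 and lowered 7, with a median of 0.14, where 14.3% of all genes were raised and 9.02% lowered. In parental cells it lowered 45 and raised 2, with a median of -0.32, where 10% of all genes were lowered and 15.4% raised. The hairpin without inhibitor lowered 42 and raised 3, with a median of -0.31, where 15.4% of all genes were lowered and 16.8% raised. Of the 23 called RNAs, 12 were called higher with the inhibitor in hairpin cells. With the inhibitor in parental cells 20 were called lower, and with the hairpin alone 20 were called lower. In 3 of the 23, both single changes were called lower and adding the second change to either single state was called higher. The 23 were chosen by the interaction, into which these same differences enter, so such counts were favoured in advance.

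SNORA57, an H/ACA RNA, was at 7.27, 7.53 and 7.13 in Wip1SH+ATMi, 6.60, 6.66 and 6.77 in Wip1SH, 6.81, 6.92 and 6.80 in WT+ATMi and 7.12, 7.82 and 7.40 in WT. The combined and the WT arrays lay above all single ones, and the interaction was 1.23 ± 0.22 (adjusted p = 0.0128). SNORA61 was at 11.47, 11.32 and 11.30 in Wip1SH+ATMi, 10.94, 10.82 and 10.86 in Wip1SH, 11.24, 11.01 and 11.26 in WT+ATMi and 11.52, 11.47 and 11.46 in WT. The combined arrays lay between both single groups and WT apart from 1 that reached the lowest WT array, and the interaction was 0.80 ± 0.12 (adjusted p = 0.00828). SNORD69 had 0.80 ± 0.12 (adjusted p = 0.00806), SNORD14A 0.89 ± 0.15 (adjusted p = 0.01) and SNORA25 0.75 ± 0.12 (adjusted p = 0.0096). Further called C/D members were SNORD73A (0.97), SNORD4A (0.94), SNORD56 (0.92), SNORD57 (0.92), SNORD33 (0.88) and SNORD104 (0.88). SNORA71C was called but was not detected on any WT or WT+ATMi array, so its change in parental cells was between values below background.

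Genes that span these RNAs were tested in the same way. For 89 of the 117 a gene spanning them was tested, 57 genes in all, with a median interaction of 0.0041. Of these, 1 was called higher and 1 lower, where 1.9% and 1.21% of all genes were. The 89 RNAs, called or not, had a median of 0.40. The called RNAs were chosen by a high interaction and their spanning genes were not, so a gap between them was favoured in advance. The 15 genes spanning called RNAs included 0 calls by limma, which is near the 3.11% of all genes called. Of the 15, 4 had an unadjusted p under 0.05, where 18.6% of all genes did. Their median was 0.09, between -0.31 for SNHG32 and 0.48 for SNHG17. So few genes do not show that the spanning genes stayed unchanged. SNHG17, which spans SNORA71C, LBHD1, which spans SNORA57, and SNHG12, which spans SNORA61, lay highest at 0.48, 0.39 and 0.37 (adjusted p = 0.113, 0.195 and 0.458). NOP56, which spans SNORD56 and SNORD57, had 0.0041, RPS3A, which spans SNORD73A, had 0.17, and RPL13A, which spans SNORD33, had -0.26 (adjusted p = 0.989, 0.422 and 0.195). Among 67 cytosolic ribosomal proteins 0 were called by limma, 6 had an unadjusted p under 0.05 (8.96%, against 18.6% of all genes), and their median was 0.01. The strand of these genes was not used, so a spanning gene is a neighbour by position and may not be the host.

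The number of small nucleolar calls varied with single arrays and with scaling. Leaving out any 1 array left 11 to 20 called higher, with the median between 0.37 and 0.42. It was 11 without Wip1SH+ATMi replicate 1 or WT+ATMi replicate 1, 12 without Wip1SH replicate 1 or WT+ATMi replicate 3, and 14 without Wip1SH+ATMi replicate 3. Without Wip1SH replicate 3, 1 was called lower. With equal array medians over all probes 2 were called, at a list median of 0.13 against -0.28 over all genes, and SNORD69, SNORA61, SNORA25 and SNORD14A lost their calls. With the detected-probe count as covariate 15 were called, at a median of 0.41. Without background correction 32 were called, at a median of 0.24.

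**Figure D3:**
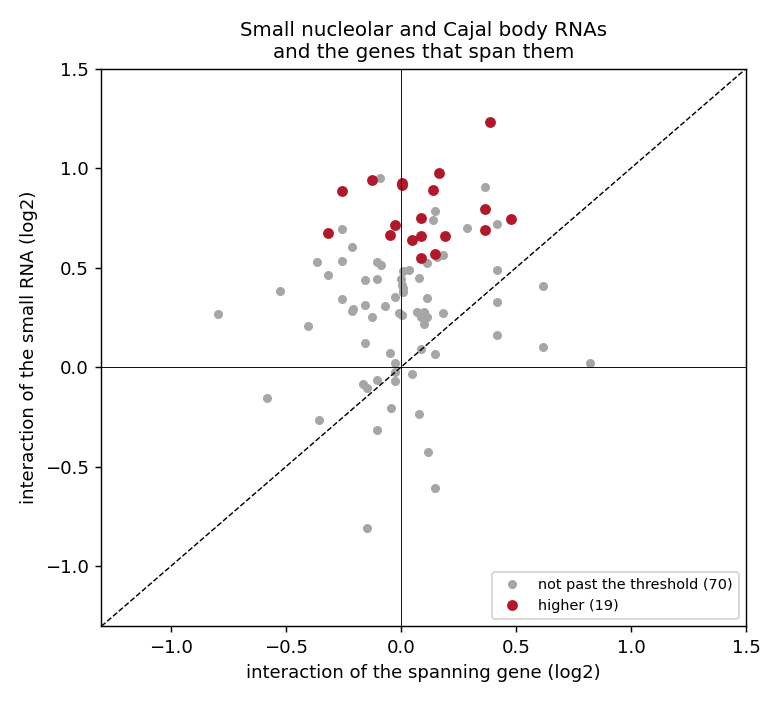
Interaction (log2) of 89 small nucleolar and Cajal body RNAs on the vertical axis against that of the tested gene spanning each on the horizontal axis. Red points are the 19 called RNAs of this set and grey points the other 70. The dashed line marks equal values. The red points were chosen by a high interaction and their spanning genes were not, so a place above the line was favoured in advance.

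FOS had the largest lower interaction of all genes, and EGR1 was among the 15 largest lower ones. Both are immediate-early transcription factors, induced quickly by growth factor and stress kinases. Their proximal promoters, 250 bases before to 50 after the start, are shown because these were the 2 immediate-early genes called lower, and capitals mark TGACGT or its reverse complement, the core of the cyclic AMP response element. The sequences are RefSeq's, build GRCh38.p14, plus strand, at chr14:75278578-75278877 for FOS and chr5:138465229-138465528 for EGR1.
FOS: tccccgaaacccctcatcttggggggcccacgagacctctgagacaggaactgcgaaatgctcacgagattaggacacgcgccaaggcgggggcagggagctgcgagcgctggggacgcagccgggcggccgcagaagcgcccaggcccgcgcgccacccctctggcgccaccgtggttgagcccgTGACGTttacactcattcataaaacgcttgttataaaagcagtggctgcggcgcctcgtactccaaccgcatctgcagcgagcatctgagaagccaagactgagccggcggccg
EGR1: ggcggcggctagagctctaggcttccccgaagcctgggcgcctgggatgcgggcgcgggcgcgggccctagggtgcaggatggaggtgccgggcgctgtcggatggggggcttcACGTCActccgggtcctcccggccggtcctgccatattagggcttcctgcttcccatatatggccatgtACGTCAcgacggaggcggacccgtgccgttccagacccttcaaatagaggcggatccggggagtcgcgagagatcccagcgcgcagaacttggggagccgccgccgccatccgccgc
The FOS window held 1 match and the EGR1 window 2, on both strands searched, and 7.98% of 35116 promoters of the same length hold at least 1. The CArG box of the serum response element had 2 matches in the EGR1 window and 0 in the FOS window, and 1.29% of promoters hold 1 or more. The windows end 250 bases before the start, so sites farther upstream were not counted for either gene. These matches are descriptions of sequence and do not show binding.

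FOS was at 7.09, 6.98 and 7.13 in Wip1SH+ATMi, 6.74, 6.76 and 6.95 in Wip1SH, 7.44, 7.43 and 7.71 in WT+ATMi and 6.20, 5.98 and 5.23 in WT. Either single change went with more FOS than in WT, and the combined arrays lay between the single states. The interaction was -1.47 ± 0.28 (adjusted p = 0.0176), with 0.25 (not called) for the inhibitor in hairpin cells and 1.72 in parental cells. Without WT+ATMi replicate 3 the adjusted p was 0.0512. FOS was detected on 2 of 3 WT arrays, and the value of 5.23 lay below that array's lowest detected signal of 5.67. On leaving out any 1 array the interaction lay between -1.67 and -1.18, so background limits its size and with it the rank of FOS. EGR1 was at 11.15, 11.02 and 11.14 in Wip1SH+ATMi, 11.21, 11.29 and 11.17 in Wip1SH, 10.57, 10.75 and 10.50 in WT+ATMi and 9.64, 9.69 and 9.59 in WT. All single and combined arrays lay above WT, and the inhibitor's difference was -0.12 (not called) in hairpin cells, against a rise of 0.96 in parental cells. The interaction was -1.08 ± 0.12 (adjusted p = 0.00232). The 2 genes differed in their highest group, WT+ATMi for FOS and Wip1SH for EGR1, and with the inhibitor present the hairpin's difference was -0.46 (not called) for FOS and 0.50 for EGR1. Of 20 immediate-early genes tested these 2 were lower (10%, against 1.21% of all genes) and MAFF was higher at 0.62 (5%, against 1.9%). The other 2 probes of MAFF were at -0.02 and -0.18, and its call was lost on leaving out any of 10 arrays. The list's median was -0.07.

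p53 target genes were lower as far as they were called, with 1 exception. Of 34 tested, 4 were called lower (11.8%, against 1.21% of all genes) and ZMAT3 higher (2.94%, against 1.9%). Above 0 lay 9 of the 34, where 47.5% of all genes did, with a median of -0.20. TP53I3, a quinone oxidoreductase, was at 11.26, 11.29 and 11.08 in Wip1SH+ATMi, 11.83, 11.92 and 11.85 in Wip1SH, 12.001, 11.97 and 11.77 in WT+ATMi and 11.70, 11.72 and 11.62 in WT. The combined arrays lay below the other 9, though neither single change was called against WT. Its interaction was -0.89 ± 0.12 (adjusted p = 0.00698), and the second probe gave -0.88. GDF15, a secreted stress cytokine, had an inhibitor difference of 0.09 (not called) in hairpin cells and a rise of 0.89 in parental cells, an interaction of -0.80 ± 0.14 (adjusted p = 0.0111). TP53INP1, a stress protein that acts in cell death and autophagy, had -0.75 ± 0.13, with a second probe at -0.71.

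GADD45A, which restrains growth and takes part in DNA repair and demethylation, was at 11.82, 11.71 and 11.80 in Wip1SH+ATMi, 12.09, 12.20 and 12.14 in Wip1SH, 11.06, 10.95 and 11.12 in WT+ATMi and 10.67, 10.83 and 10.82 in WT. The 4 groups did not overlap. The inhibitor lowered it by 0.37 in hairpin cells and raised it by 0.28 in parental cells, an interaction of -0.64 ± 0.11 (adjusted p = 0.0114). Its second probe gave -0.29, with 0.05 for the inhibitor in parental cells. All 4 lower calls were kept on leaving out any 1 array. ZMAT3, a zinc finger protein that binds RNA, had 0.76 ± 0.12 by its brightest probe but -0.69 and -0.68 by the other 2, and the mean of its probes gave -0.20. For CDKN1A, the p21 inhibitor of cyclin-dependent kinases, the interaction was -0.29 ± 0.11 (adjusted p = 0.186) by the brighter probe and -0.58 by the second, and for MDM2, the ubiquitin ligase of p53, 0.07 ± 0.22 (adjusted p = 0.894).

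Genes of DNA replication lay mostly above 0. Of 36 tested, 3 were called higher (8.33%, against 1.9% of all genes) and 25 lay above 0, where 47.5% of all genes did, with a median of 0.23. MCM5, a subunit of the replicative helicase, was at 9.43, 9.45 and 9.31 in Wip1SH+ATMi, 8.65, 8.94 and 8.89 in Wip1SH, 9.76, 9.85 and 9.81 in WT+ATMi and 9.94, 9.89 and 9.79 in WT. The inhibitor raised it by 0.57 in hairpin cells and left it at -0.07 (not called) in parental cells, and the combined arrays stayed below both parental groups. The interaction was 0.64 ± 0.13 (adjusted p = 0.0224), and it lost its call without Wip1SH+ATMi replicate 1 or 2 or WT+ATMi replicate 1 or 3. MCM7 of the same helicase (0.42 ± 0.09) and RFC5 of the clamp loader (0.46 ± 0.10) lost theirs on leaving out any of 11 and 10 arrays. With the inhibitor present the hairpin lowered 10 of the 36 genes and raised 0, where 10.7% of all genes were lowered and 10.5% raised. Without it the hairpin lowered 20 and raised 0, where 15.4% of all genes were lowered and 16.8% raised. The inhibitor raised 13 in hairpin cells and 2 in parental cells, where 14.3% and 15.4% of all genes were raised. Under equal array medians over all probes the list median turned to -0.07, against -0.28 over all genes, and MCM5, MCM7 and RFC5 lost their calls.

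E2F2, an activator of S-phase genes, had 0.61 ± 0.12 (adjusted p = 0.0229, lost on leaving out any of 5 arrays) and CDK6, a kinase of early G1, had -0.73 ± 0.13 (adjusted p = 0.0135). They were the only calls among 28 cyclins, inhibitors and E2F genes. That is 3.57% higher, against 1.9% of all genes, and 3.57% lower, against 1.21%. Among 40 mitosis genes 0 were called by limma and 8 had an unadjusted p under 0.05 (20%, against 18.6% of all genes), with a median of 0.04. The hairpin lowered 28 of the 40 with the inhibitor, where 10.7% of all genes were lowered, and 31 without it, where 15.4% were. Among 14 tubulins 0 were called by limma, 8 had an unadjusted p under 0.05 (57.1%, against 18.6% of all genes), 12 lay above 0, where 47.5% of all genes did, and the median was 0.31. Their median level was 10.69, 10.71 and 10.61 in Wip1SH+ATMi, 10.09, 10.16 and 10.11 in Wip1SH, 10.82, 10.78 and 10.71 in WT+ATMi and 10.56, 10.46 and 10.59 in WT. The Wip1SH arrays were lowest and the inhibitor raised 7 of the 14 tubulins in hairpin cells, where 14.3% of all genes were raised.

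Regulators of DNA methylation moved in both directions. Of 12 tested, MBD4, UHRF1 and DNMT3B were higher (25%, against 1.9% of all genes), GADD45A was lower (8.33%, against 1.21%), and the list's median was 0.02. UHRF1, which brings the maintenance methyltransferase to replicated DNA, had 0.54 ± 0.11 (adjusted p = 0.0249), and DNMT3B, a de novo methyltransferase, 0.54 ± 0.12 (adjusted p = 0.032). They lost their calls on leaving out any of 8 and 10 arrays, and both lost them with the mean of their probes and with equal array medians over all probes. The second probe of UHRF1 gave 0.65, and the other probes of DNMT3B gave 0.25 and 0.17. DNMT1, the maintenance methyltransferase, had 0.05 ± 0.10. The histone variants MACROH2A1 and MACROH2A2 had 0.14 ± 0.10 and 0.02 ± 0.10. Of 24 histone variant and chaperone genes 0 were called by limma, with 4 at an unadjusted p under 0.05 (16.7%, against 18.6% of all genes). KLF4 and MYC, both reprogramming factors, had -0.04 ± 0.12 and 0.08 ± 0.12.

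**Figure D4:**
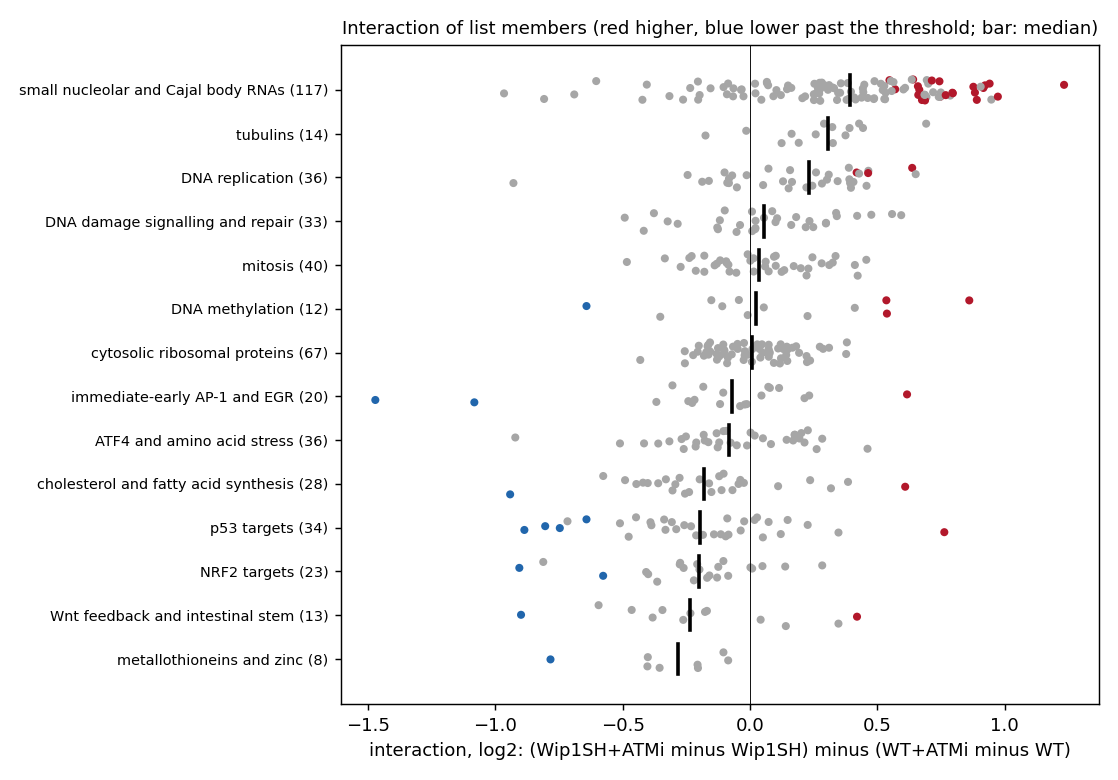
Interaction (log2, horizontal axis) of each tested member of 14 gene lists, with the number of members in brackets and the median as a black bar. Red points were called higher and blue points lower; small nucleolar RNAs have 23 red points and a median of 0.39, and p53 targets 4 blue and 1 red with a median of -0.20.

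An aldo-keto reductase and a quinone reductase were the lower genes among the targets of NRF2, the factor that drives antioxidant and detoxifying enzymes. AKR1B10 was at 8.24, 8.27 and 8.26 in Wip1SH+ATMi, 9.81, 9.66 and 9.82 in Wip1SH, 8.26, 8.39 and 8.42 in WT+ATMi and 8.99, 8.97 and 8.91 in WT. The hairpin alone raised it by 0.81, while with the inhibitor the combined and the parental arrays overlapped. The inhibitor lowered it by 1.51 in hairpin cells and by 0.60 in parental cells, an interaction of -0.91 ± 0.11 (adjusted p = 0.00292). AKR1B15, its close paralog, had -1.16 ± 0.18, and whether each probe separates the 2 transcripts was not tested. NQO1, a quinone reductase, was at 13.63, 13.62 and 13.78 in Wip1SH+ATMi, 13.06, 13.12 and 13.14 in Wip1SH, 13.99, 13.90 and 13.93 in WT+ATMi and 12.85, 12.76 and 12.78 in WT. The inhibitor raised it in both, by 0.57 and by 1.14, an interaction of -0.58 ± 0.10 (adjusted p = 0.0128). The second NQO1 probe gave -0.92, and the call was lost with the mean of its probes. These 2 were the only calls among 23 NRF2 targets tested (8.7%, against 1.21% of all genes), whose median was -0.20.

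A smaller set of genes was raised by the hairpin alone and lowered by the inhibitor in hairpin cells. WFDC2, a secreted protein of epithelia, was at 4.96, 5.49 and 5.01 in Wip1SH+ATMi, 6.73, 6.59 and 6.69 in Wip1SH, 5.58, 5.44 and 5.55 in WT+ATMi and 5.63, 5.89 and 5.50 in WT. Outside Wip1SH it was detected on 1 Wip1SH+ATMi, 2 WT+ATMi and 1 WT array, so background limits the size of its interaction. The 3 Wip1SH arrays stood alone at the top, and the interaction was -1.37 ± 0.19 (adjusted p = 0.00728). MYH16, annotated as a myosin heavy chain pseudogene in humans, had -1.31 ± 0.22 in the same form. LCE1A, of the skin's cornified envelope, and MYO1A, a brush border myosin, were called lower too. Both were detected in Wip1SH alone and passed the filter through it, so their interactions have no exact size. In Wip1SH they were at least 1.55-fold and 1.22-fold above WT and 1.80-fold and 1.41-fold above Wip1SH+ATMi. C5orf24 (-0.89 ± 0.12) and MSX2, a homeobox gene induced by BMP (-0.80 ± 0.17), were likewise called lower with the inhibitor in hairpin cells, and the inhibitor's change was not called in parental cells. MSX2 lost its call on leaving out any of 4 arrays. SOX9, a factor of intestinal stem and Paneth cells, differed from these in that the hairpin alone gave 0.06 (adjusted p = 0.641). Its 3 Wip1SH+ATMi arrays, at 10.75, 10.56 and 10.79, lay below the other 9. Its interaction was -0.61 ± 0.13, lost on leaving out any of 9 arrays.

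PMEPA1, an inhibitor of TGF-beta signalling, was called higher with the inhibitor in parental cells alone. It was at 6.97, 7.04 and 7.23 in Wip1SH+ATMi, 6.77, 6.86 and 7.19 in Wip1SH, 7.87, 7.82 and 7.96 in WT+ATMi and 6.64, 6.76 and 6.73 in WT. The WT+ATMi arrays lay above the other 9, and the 2 hairpin groups overlapped. The interaction was -1.03 ± 0.16 (adjusted p = 0.00828), with -1.10 and -1.20 by its other probes. ABCA1, the exporter of cholesterol, had -0.94 ± 0.14 (adjusted p = 0.00806), and NKD1, a Wnt antagonist, was called lower too. NKD1 was detected in WT+ATMi alone and passed the filter through it, at least 1.25-fold below that group in Wip1SH+ATMi and at least 1.08-fold higher there than in WT, so its interaction has no exact size. Its relative NKD2 had 0.42 ± 0.10 but lost its call on leaving out any of 11 arrays. JAG1, a Notch ligand, had -0.52 ± 0.10 and lost its call without Wip1SH replicate 1 or 3 or WT+ATMi replicate 1. RELB, a subunit of NF-kB, had -0.65 ± 0.12 with opposite signs, -0.29 in hairpin and 0.36 in parental cells.

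VPS13C, a lipid transfer protein, was called lower (adjusted p = 0.00232) with opposite signs. Its probe was not detected on any WT array, so that the inhibitor's rise in parental cells was at least 1.57-fold, and a second probe gave -0.29. NBPF9 had -0.87 ± 0.13 by a bright probe and 0.08 by a dim one. HDAC4, a histone deacetylase, and PPID, a cyclophilin, had interactions of -1.11 and -1.04. CXCR4, a chemokine receptor, CDK17, a cyclin-dependent kinase, and LBX2, a homeobox gene, were called lower but were not detected on any WT array. The inhibitor in parental cells raised them at least 1.40-fold, 1.08-fold and 1.72-fold. All 5 lost their calls on leaving out any of 6 to 10 arrays. NAV3 (-1.05 ± 0.20) lost it without WT+ATMi replicate 3, where the adjusted p was 0.0515.

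Where the inhibitor acted the same way in both, its size differed. DUSP5, a phosphatase that inactivates ERK in the nucleus, was at 12.28, 12.16 and 12.45 in Wip1SH+ATMi, 12.68, 12.75 and 12.83 in Wip1SH, 11.12, 11.12 and 11.03 in WT+ATMi and 12.26, 12.39 and 12.29 in WT. The inhibitor lowered it by 0.46 in hairpin cells and by 1.22 in parental cells, so that the combined arrays overlapped with WT. The interaction was 0.77 ± 0.12 (adjusted p = 0.0092), and it was the 1 call among 20 ERK feedback genes (5% higher, against 1.9% of all genes). IFFO1 had 0.57 ± 0.11. FAM43A (-0.78 ± 0.13), CREB3L2, a membrane-bound transcription factor (-0.55 ± 0.10), and LPP, a focal adhesion protein (-0.49 ± 0.09), were raised by the inhibitor in both and less in hairpin cells. Without WT+ATMi replicate 3 the adjusted p of LPP was 0.056, its second probe gave -0.31, and the call was lost with the mean of its probes. DUSP5 and IFFO1 lost their calls with equal array medians over all probes. FCGBP, a mucus protein, had -0.80 ± 0.16 in the same form and lost its call without Wip1SH replicate 1 or WT+ATMi replicate 3. MTF1, the metal-responsive factor, was lowered in both and more in hairpin cells (-0.78 ± 0.17), and lost its call on leaving out any of 7 arrays. CHPF, a chondroitin polymerase, differed from these in that the inhibitor's change was called in hairpin cells alone. It had -0.89 ± 0.14, with -0.82 for the inhibitor in hairpin cells and 0.07 (not called) in parental cells. The hairpin's own difference in CHPF was -1.35 without the inhibitor and -2.24 with it.

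Many gene lists held no called interaction by limma at an adjusted p of 0.05. Of all genes 3.11% were called, so an absence of calls in lists of this size is near that share. There were 0 calls among the 33 listed genes of DNA damage signalling and repair (median 0.06, with RAD54L the nearest at 0.56, adjusted p = 0.0908). Of the 33, 4 had an unadjusted p under 0.05 (12.1%, against 18.6% of all genes). ABRAXAS1, DMC1 and MBD4, described above, were called higher and were not in that list. Neither were GEN1 (0.999), MCM8 (0.97) and TDP1 (0.94), repair genes called higher (adjusted p = 0.0236, 0.00728 and 0.0232). GEN1, MCM8 and TDP1 were named after their values were seen, and ABRAXAS1, DMC1 and MBD4 because they were called. Other repair genes outside the list were not counted, so nothing follows for repair genes as a group. Calls were also absent among 36 ATF4 targets, 35 genes of glycolysis, 76 of oxidative phosphorylation, 32 of the proteasome, 25 of the interferon response and 20 of the BCL2 family. Their counts at an unadjusted p under 0.05 were 8, 5, 6, 3, 6 and 4 in the same order. These were 22.2%, 14.3%, 7.89%, 9.38%, 24% and 20%, against 18.6% of all genes. The medians of these lists lay between -0.09 and 0.02. Of 21 replication-dependent histones 0 were called by limma, 7 had an unadjusted p under 0.05 (33.3%, against 18.6% of all genes), 3 lay above 0, where 47.5% of all genes did, and the median was -0.19. FGFR3, a growth factor receptor, was raised by both single changes and most by both together, at 11.50, 11.52 and 11.52 in Wip1SH+ATMi, 10.07, 10.15 and 10.28 in Wip1SH, 9.09, 9.10 and 9.18 in WT+ATMi and 8.44, 8.12 and 8.32 in WT. The groups did not overlap, and the interaction of 0.52 ± 0.13 missed the threshold (adjusted p = 0.0518). A second, dimmer probe gave -0.92.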

How the data were processed

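Total RNA of 12 HCT116 cultures, extracted with Trizol and cleaned on RNeasy columns, was labelled with the Illumina TotalPrep kit and hybridised to HumanHT-12 v4 bead arrays, per the labels' protocols. The deposited log2 values equalled, to within 5e-06, limma's neqc (offset 16, quantile normalization) of the deposited intensity values. Each intensity has a deposited detection p-value beside it. The scanner software was not given in the sources used here.

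Of 47323 probes, 30113 had 1 gene symbol and 8 several in the platform table, and 17202 were not named here; 30074 matched the RefSeq gene table. Probes with a detection p under 0.05 on at least 3 of 12 arrays were kept (15772), and the brightest probe stood for each gene (3150 genes had several), which gave 11785 genes. A probe undetected on all 3 arrays of a group has only a bound there, printed as "at least", set against the lowest detected signal of each array. All arrays entered 1 linear model with a mean for each group, in limma 3.58.1 in R 4.3.3, which was tested on simulated data. Every test was two-sided, and the number of arrays limits the precision. Promoter sequences came from RefSeq (GRCh38.p14).

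The genes named are PPM1D and ATM; the 15 largest called interactions in each direction; up to 8 with the smallest adjusted p in each class of inhibitor response; up to 4 called members of a list, or its member with the smallest p; and CDKN1A, MDM2, GADD45A, MYC, MACROH2A1, MACROH2A2, DNMT1, DNMT3B and KLF4. Further small nucleolar RNAs, their spanning genes and GEN1, MCM8 and TDP1 were named after their values were seen. The members and lists were chosen with earlier results of these data known. Replicate numbers do not pair the samples. Alternatives were other background corrections, scalings, detection filters and spread models, array weights, averaging the probes of a gene, a replicate block, the count of detected probes as covariate, a linear scale and each array left out.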

Additional observations from a re-analysis of the deposited data

Results flagged for a closer look

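Each of the 77 named genes below was flagged because the inhibitor's change differed between hairpin and parental cells by the test of the interaction, and the values are log2 interactions. Every sign is that of Wip1SH+ATMi against the sum of both single changes. A group lay below background on all of its arrays for LCE1A and MYO1A (Wip1SH+ATMi, WT+ATMi and WT), NKD1 (Wip1SH+ATMi, Wip1SH and WT), SNRNP35 (Wip1SH), TXNDC2 (WT+ATMi) and CXCR4, CDK17, LBX2 and VPS13C (WT), and the size of their interaction is not exact. Others, among them WFDC2, ACSF3, FOS, HDAC4 and NAV3, were detected on only some arrays of a group, so background limits their size too.

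Where the inhibitor's change was called with opposite signs in hairpin and parental cells, the higher genes were LMOD3 1.27, SNORA57 1.23, ABRAXAS1 1.12, SNRNP35 1.08, SHROOM4 1.06, ZNF682 1.05, DMC1 0.98, SLC4A11 0.94, SNORD14A 0.89, MBD4 0.86, SMURF2P1-LRRC37BP1 0.81, SNORD69 0.80, SNORA61 0.80, ZMAT3 0.76, SNORA25 0.75 and UHRF1 0.54. The lower genes of this kind were VPS13C -1.15, TP53INP1 -0.75, RELB -0.65 and GADD45A -0.64.

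Where it was called in hairpin cells alone, the higher genes were ACSF3 1.34, RNA18SN5 1.30, TAGLN 1.17, TCAF2 1.08, GSDMB 1.01, TAF1C 0.83, MCM5 0.64, E2F2 0.61, HSD17B7 0.61, RFC5 0.46, NKD2 0.42 and MCM7 0.42. The lower ones were WFDC2 -1.37, MYH16 -1.31, LCE1A -1.29, MYO1A -1.01, CHPF -0.89, TP53I3 -0.89, C5orf24 -0.89, MSX2 -0.80, CDK6 -0.73 and SOX9 -0.61.

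Where the inhibitor's change was called in parental cells alone, the higher genes were TXNDC2 1.19, MBTD1 1.15, KRTAP3-1 1.11, TMEM106A 1.11, FKBP14 1.09, MINDY1 1.02, COA8 0.88, PAXIP1-DT 0.71, C2orf69 0.66, MAFF 0.62 and DNMT3B 0.54. The lower ones were FOS -1.47, CXCR4 -1.11, HDAC4 -1.11, CDK17 -1.09, EGR1 -1.08, NAV3 -1.05, LBX2 -1.05, PPID -1.04, PMEPA1 -1.03, ABCA1 -0.94, NKD1 -0.90, NBPF9 -0.87, GDF15 -0.80 and JAG1 -0.52.

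Where it was called with the same sign in both, the higher genes were DUSP5 0.77 and IFFO1 0.57. The lower ones were AKR1B15 -1.16, AKR1B10 -0.91, FCGBP -0.80, MTF1 -0.78, FAM43A -0.78, NQO1 -0.58, CREB3L2 -0.55 and LPP -0.49.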

How the results depend on the processing

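The 367 interactions called (224 higher, 143 lower) became 572 without background correction, 559 on a linear scale and 702 with a trended, robust spread, and 231 with the count of detected probes as covariate. The count of higher genes became 11 with equal array medians over all probes and 396 with the trended spread. The count of lower genes became 237 without background correction, 256 with equal array medians over all probes, 76 with the covariate, 246 on a linear scale and 306 with the trended spread. Leaving out 1 array gave 161 to 319 calls, 114 to 189 higher and 47 to 130 lower, with the lowest counts without WT+ATMi replicate 3. With the covariate the inhibitor was called in 159 genes in hairpin cells and in 33 in parental cells, and the hairpin in 1183 genes with the inhibitor and in 886 without it. Equal array medians over all probes gave 7204 calls for the inhibitor in parental cells and 1282 for the hairpin with the inhibitor. ZMAT3 turned to -0.20 with the mean of its probes. The covariate follows the groups, so it takes up part of their difference. For the other changes the cause was not tested.

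The replicate number as a block gave 295 calls (187 higher, 108 lower), 267 of them shared. Same-numbered arrays had correlations of -0.08 to 0.14 between their deviations from the group means, over 0.1 in 3 of 18 pairs. Of the 77 named called genes, 50 kept their call on leaving out any 1 array. Equal array medians over all probes lost 34 of the 77, the covariate 16 and the mean of a gene's probes 13. With arrays kept in, 29 kept their call under every alternative that tested them, apart from the covariate. Signals near background limit the dimmest genes.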

Other observations

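Genes named ZNF, zinc finger proteins that mostly act in transcription, were chosen after seeing the calls. Of 298 tested, 13 were higher (4.36%, against 1.9% of all genes) and 6 lower (2.01%, against 1.21%), with a median of -0.04.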
